A study of Mus musculus with 54 samples.

Results

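The 10 genes described here encode the core enzymes of mitochondrial beta-oxidation: the acyl-CoA dehydrogenases Acadm, Acadl, Acadvl and Acads, the subunits Hadha and Hadhb of the mitochondrial trifunctional protein, the 3-hydroxyacyl-CoA dehydrogenase Hadh, the thiolase Acaa2, and the enoyl-CoA isomerases Eci1 and Eci2. They were taken by symbol from the table of liver transcript levels, which holds 20143 gene symbols. All 10 were present, each on 1 row, and all 10 passed the filter on low values. Male C57BL/6J mice of wild-type genotype received a high-fat diet in every group, controls included, from the age of 8 weeks. Over the same 20 weeks they were given di-isononyl phthalate (DINP), a plasticizer, by mouth in a gelatin pellet at a daily dose of 0 (control, placebo pellet), 1.5, 15 and 150 mg per kg of body weight (mg/kg bw/d). The libraries covered 14, 13, 13 and 14 mice of these groups, with 1 library made from the medial liver lobe of each. More mice took part in the study than have a library here. The mice were housed singly. Since no group received a regular diet, every comparison is one among mice on the high-fat diet.

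Beta-oxidation shortens fatty acids inside the mitochondrion by repeating cycles of dehydrogenation, hydration, a second dehydrogenation and thiolytic cleavage. Each cycle releases acetyl-CoA, and the electrons pass to the respiratory chain. In the liver this pathway feeds ketone body formation during fasting, and several of its genes are known targets of the nuclear receptor PPARα, which fatty acids and some phthalate metabolites activate.

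The values are named TPM, a transcript abundance corrected for length and sequencing depth. They look as if they had been rounded and scaled between samples, and they are called levels here. Of the 54 libraries, 8 stood apart from the other 46. The split was first seen in the members and then defined on other genes, so that the members' values in the 8 are a description: on the first principal component of 11319 genes outside the lists used here (13.7% of the variance), their scores ran from 25.4 to 52.3 against -24.7 to 8.2 in the others, the widest gap between neighbours. They were mice 4 to 9 at 15 mg/kg bw/d, control mouse 1 and mouse 10 at 150 mg/kg bw/d. Transcripts of ribosomal proteins made up 2.26% to 3.05% of the summed values in the 8 (median 2.54%) and 1.46% to 2.35% in the others (median 1.73%). What set these libraries apart was not tested, and among the mice at 15 mg/kg bw/d it cannot be told apart from a response of 6 of the 13 mice. The calls and fold changes of the members are therefore given with all libraries and without the 8. The summed values of 6 hepatocyte markers lay between 22980 and 45350 over all mice, so that markers of the labelled tissue were present in every library. Markers of adipocytes (4 genes) and muscle (4 genes) had a median of 0 in every group, although summed muscle markers reached 74.4 in 1 control mouse and 224 in 1 mouse at 15 mg/kg bw/d. The summed levels of Kupffer cell markers (47.5 to 193), stellate cell markers (129 to 383), endothelial markers (73.6 to 109) and bile duct markers (13.8 to 254) were low beside those of hepatocytes, and the 1 of 4 pancreas markers in the table did not exceed 3.58. In bulk tissue, fewer cells of a type and less RNA per cell cannot be told apart.

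In control livers the members spanned a wide range of levels. On the scale of the deposited TPM, which divides by transcript length, Acaa2 had the highest median (1236), followed by Acadm (569.0), Hadh (279), Acadvl (271), Hadha (178), Acads (143), Acadl (107.0), Eci1 (106), Eci2 (102) and Hadhb (40.2). The control ranges of Hadh and Acadvl overlapped, as did those of Hadha and Acads and those of Acadl, Eci1 and Eci2. The order among these neighbours was thus within the spread between mice. The ranges of Acaa2 and Acadm met at their ends (lowest 807, highest 851), and Acads overlapped with Acadl through control mouse 1 alone (Acads 95.6). QuantSeq reads start near the 3′ end of a transcript whatever its length, so that division by length lowers the values of long transcripts and the order between genes is only approximate. Spread between control mice was smallest for Acadl, from 94.3 to 128, and wide for Eci2, from 58.9 to 139.

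The question behind the comparison of 150 mg/kg bw/d with control is whether the high dose moved the expression of the pathway. With all 54 libraries, 5 of the 10 members rose at an adjusted p under 0.05, namely Eci2, Eci1, Acaa2, Acadl and Hadha, and none fell. Of all 11431 genes tested, 1.49% rose and 0.682% fell in this comparison. All 10 members had a log2 fold change above 0, from 0.11 to 0.58 with a median of 0.28, where the median of all genes tested was -0.01. Without the 8 libraries, 8 of the 10 rose and none fell (2.33% and 1.29% of all genes tested), and the log2 fold changes ran from 0.11 to 0.59. With all values rescaled to the same sum in each sample, 3 of the 10 rose (Eci2, Eci1 and Acaa2). In that setting 82 of the 11431 genes rose, and the median log2 fold change of all genes was -0.09. With all libraries, 7 of the 10 rose when the 2 groups were fitted alone, with array quality weights, or in the Wilcoxon rank-sum test, and Acadm and Hadhb were among the 7 each time. In the same order, 241, 291 and 323 of the 11431 genes rose, against 170 in the fit of all 4 groups. Values in each mouse are drawn in the plot of levels by dose.

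**Figure D1:**
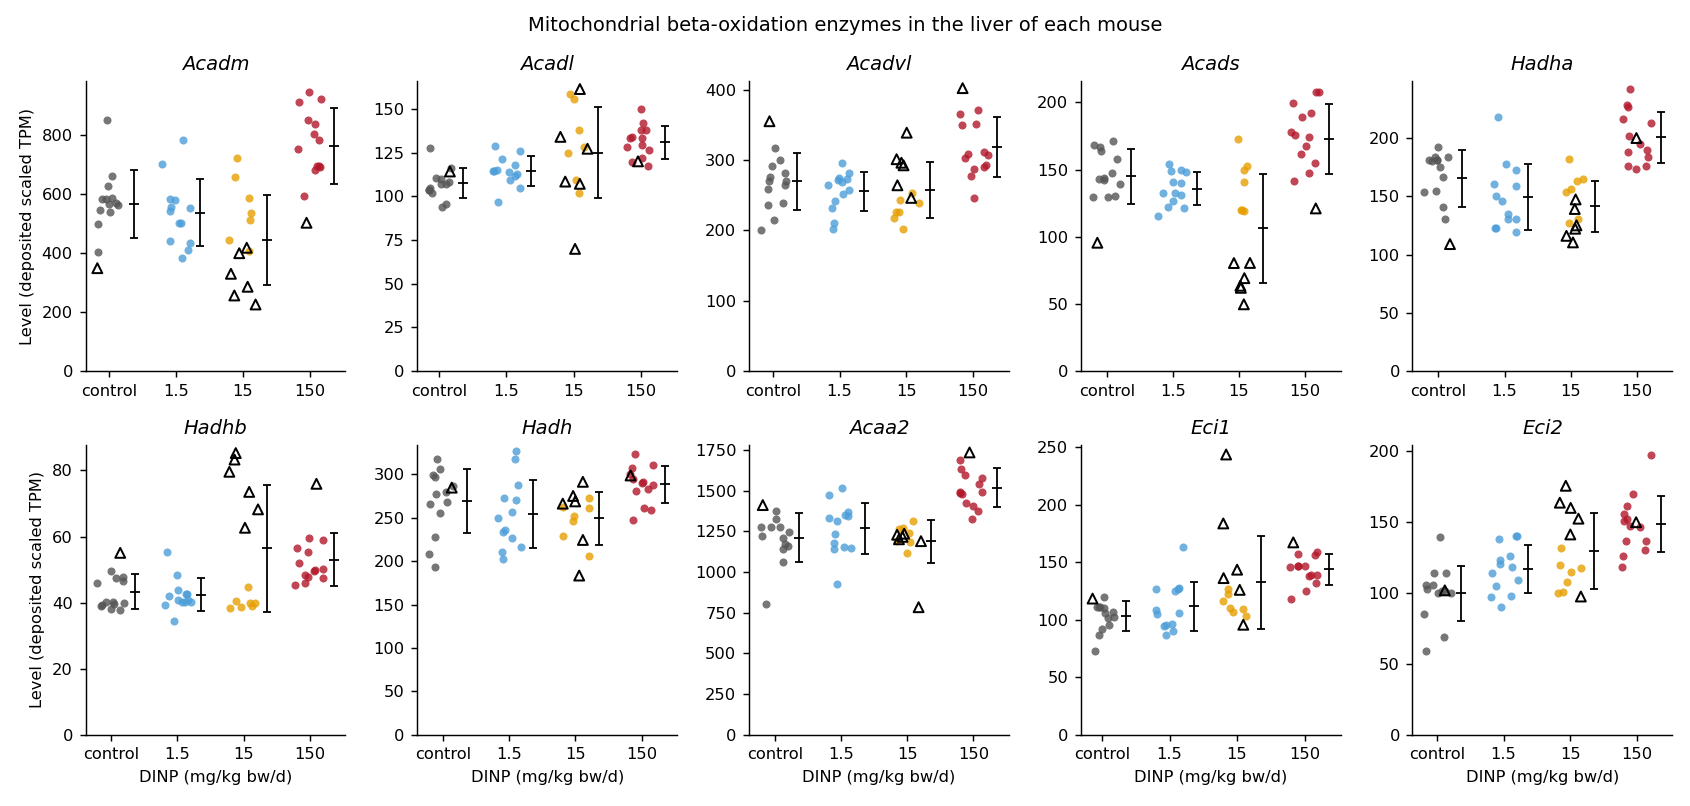
Level of each of the 10 members in the liver of each mouse, in deposited scaled TPM on the y axis, by DINP dose on the x axis; dots are mice, open triangles the 8 libraries that stand apart, and the bars to the right the mean ± SD of all mice of the group. At 150 mg/kg bw/d the Acaa2 levels of all 14 mice (1327 to 1736) lie above those of all 13 mice at 15 mg/kg bw/d (784 to 1311), and in Acads and Hadhb the 6 triangles at 15 mg/kg bw/d lie apart from the other 7 mice.

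Eci1 and Eci2 are the isomerases that shift double bonds of unsaturated fatty acids into the position the hydratase accepts; a share of the Eci2 protein is peroxisomal. They showed the strongest rises among the members. Eci2 had levels of 58.9, 102 and 139 (lowest, median and highest) in the 14 control mice and of 118, 148 and 198 in the 14 mice at 150 mg/kg bw/d. The ranges overlapped, but all 14 exposed mice were above the control median. The log2 fold change was 0.58 ± 0.10 (SE; adjusted p = 6.81e-05), which made Eci2 the 1 member past the study's fold threshold of 0.5 for a differentially expressed gene, a rule that 0.647% of all genes passed upwards. It was 0.59 ± 0.09 without the 8 libraries (adjusted p = 3.54e-05). Eci1 had 73.0, 106 and 119 in control mice and 119, 146 and 167 at 150 mg/kg bw/d. Only the ends of these ranges met: the highest control mouse (119.4) lay just above the lowest exposed mouse (118.5), and Eci1 rose by a log2 fold change of 0.48 ± 0.09 (adjusted p = 0.00121; 0.48 ± 0.07 and 3.54e-05 without the 8 libraries). Eci3, a gene closely related to Eci2, was above 0 in 1 library alone, at a level of 0.894.

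Acaa2 carries out the last step of the cycle, the thiolytic release of acetyl-CoA from medium-chain substrates. Its levels were 807, 1236 and 1412 in control mice and 1327, 1493 and 1736 at 150 mg/kg bw/d. Of the 14 exposed mice, 11 were above every control mouse, and the lowest control value belonged to mouse 8, whose library had the lowest summed values of all (747258). The log2 fold change was 0.33 ± 0.07 (adjusted p = 0.00233) and was 0.34 ± 0.06 without the 8 libraries.

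The acyl-CoA dehydrogenases catalyse the first step and divide the substrates by chain length, from very long (Acadvl) over long (Acadl) and medium (Acadm) to short (Acads). Acadl had 94.3, 107.0 and 128 in control mice against 117, 132 and 150.1 at 150 mg/kg bw/d, and rose by a log2 fold change of 0.28 ± 0.07 (adjusted p = 0.0194; 0.30 ± 0.05 and 0.000642 without the 8 libraries). All 14 exposed mice were above the control median. Acadm had 349, 569.0 and 851 in control mice and 503, 768 and 947 at 150 mg/kg bw/d, with 13 of 14 exposed mice above the control median. The log2 fold change of 0.44 ± 0.13 did not pass (adjusted p = 0.0636), and it was 0.43 ± 0.10 without the 8 libraries, where it passed (adjusted p = 0.00777). Leaving out control mouse 13 alone (adjusted p = 0.0365) or mouse 10 at 150 mg/kg bw/d alone (adjusted p = 0.0349) also let Acadm pass. Acadvl went from a median of 271 (200.3 to 355) to 308 (247 to 402), and its log2 fold change of 0.24 ± 0.08 had an adjusted p of 0.0758 with all libraries and of 0.0227 without the 8. Without control mouse 1 alone it was 0.0362, and without mouse 11 at 150 mg/kg bw/d alone 0.0433. Acads went from a median of 143 (95.6 to 172) to 175 (121 to 208). Its log2 fold change of 0.25 ± 0.12 had an adjusted p of 0.353 with all libraries, and 0.24 ± 0.07 with an adjusted p of 0.0241 without the 8. For Acadm, Acadvl and Acads the estimate thus stayed within 0.01 when the 8 libraries were left out, while its SE fell. This comparison lost only 1 control mouse and 1 mouse at 150 mg/kg bw/d. All 4 groups set the residual spread behind this SE, and the other 6 libraries left out were of mice at 15 mg/kg bw/d. The 8 were chosen after the values were seen.

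Hadha and Hadhb form the trifunctional protein of the inner membrane, which completes the cycle for long-chain substrates: Hadha carries the hydratase and dehydrogenase activities and Hadhb the thiolase. Hadha had 109, 178 and 193 in control mice and 174, 198 and 243 at 150 mg/kg bw/d, where 11 of 14 mice were above the control median. Its log2 fold change of 0.29 ± 0.08 passed narrowly (adjusted p = 0.0497). The adjusted p was 0.0686 without the 8 libraries and between 0.0508 and 0.0996 when any 1 of 17 mice was left out (control mice 1, 2, 5, 8, 9 and 10, and mice 2 to 10, 12 and 13 at 150 mg/kg bw/d). Hadhb went from a median of 40.2 (37.7 to 55.1) to 49.99 (45.3 to 76.0), and all 14 exposed mice were above the control median. The log2 fold change of 0.28 ± 0.10 did not pass with all libraries (adjusted p = 0.161) and was 0.27 ± 0.06 without the 8, where it passed (adjusted p = 0.00281). Hadhb-ps, a pseudogene of Hadhb, did not exceed a level of 1.05 in any library.

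In GENCODE release M21 (GRCm38), Hadha (chr5:30118304-30155162, minus strand) and Hadhb (chr5:30155248-30184593, plus strand) lie head to head with 85 bases between them. The RefSeq windows of the GRCm38.p6 build that run from 250 bases before to 50 bases after each gene's RefSeq start are shown for this pair, because the windows of both genes share 228 of 300 bases, and for Eci1 and Eci2, because these rose most at 150 mg/kg bw/d. RefSeq and GENCODE place these starts differently, so the 85 bases hold for the GENCODE coordinates alone. In GENCODE, Eci2 spans chr13:34977748-35027096 (minus strand). Its window therefore lies inside the gene, away from the GENCODE start at 35027096. Capitals mark the GC box GGGCGG on either strand. Each sequence is given 5′ to 3′ on the strand of its gene: Hadha at chr5:30154931-30155230 (minus), Hadhb at chr5:30155003-30155302 (plus), Eci1 at chr17:24426433-24426732 (plus) and Eci2 at chr13:34994095-34994394 (minus).
Hadha: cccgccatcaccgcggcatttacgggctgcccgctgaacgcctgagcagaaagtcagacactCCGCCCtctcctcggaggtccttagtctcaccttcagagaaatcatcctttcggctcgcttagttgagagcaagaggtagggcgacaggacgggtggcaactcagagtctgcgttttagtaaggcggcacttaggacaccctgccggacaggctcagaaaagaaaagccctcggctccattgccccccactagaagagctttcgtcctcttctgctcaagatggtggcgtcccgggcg
Hadhb: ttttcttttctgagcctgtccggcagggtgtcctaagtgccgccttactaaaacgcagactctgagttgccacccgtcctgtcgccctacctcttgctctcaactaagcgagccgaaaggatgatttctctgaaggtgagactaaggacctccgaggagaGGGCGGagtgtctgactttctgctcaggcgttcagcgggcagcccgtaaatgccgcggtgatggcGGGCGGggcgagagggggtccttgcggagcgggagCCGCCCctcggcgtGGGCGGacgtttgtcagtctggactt
Eci1: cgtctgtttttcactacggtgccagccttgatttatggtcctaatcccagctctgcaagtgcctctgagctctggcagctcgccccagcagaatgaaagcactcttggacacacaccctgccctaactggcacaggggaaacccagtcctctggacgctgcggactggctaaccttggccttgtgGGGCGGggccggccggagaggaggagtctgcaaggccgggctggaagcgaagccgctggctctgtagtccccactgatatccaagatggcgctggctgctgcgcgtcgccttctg
Eci2: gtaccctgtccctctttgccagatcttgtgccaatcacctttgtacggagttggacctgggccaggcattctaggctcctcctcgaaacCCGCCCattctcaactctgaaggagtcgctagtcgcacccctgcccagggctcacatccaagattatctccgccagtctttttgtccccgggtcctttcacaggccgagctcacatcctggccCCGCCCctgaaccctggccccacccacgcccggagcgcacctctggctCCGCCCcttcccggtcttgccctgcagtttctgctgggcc
The GC box stood in 7 of the 9 members with a window (35.7% of all 32851 windows), among them these 4, with 1 match in Hadha and Eci1, 3 in Eci2 and 4 in Hadhb. The match in Hadha and the first match in Hadhb are the same bases, read on opposite strands within the shared 228. This site thus counted for both members. The nuclear receptor hexamer AGGTCA stood in 2 of the 9, Acadm and Acadvl (16.3% of all windows), and 2 hexamers spaced by 1 base (AGGTCANAGGTCA), the arrangement that PPARα with its partner RXR is known to bind, in none (0.0396% of all windows). Only exact matches within these windows were sought, and 13 of all 32851 windows held the spaced pair. Its absence from 9 windows therefore does not show whether these genes have sites for PPARα. CCAAT stood in Hadh and Eci2 (37.4% of all windows) and TATAAA in none (13.6%). All motifs were searched on both strands, and matches of different motifs did not count against each other where they overlapped.

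Hadh oxidizes the hydroxyl group of medium- and short-chain intermediates. It was the member with the smallest difference at 150 mg/kg bw/d, with 193, 279 and 317 in control mice and 248, 291 and 324 in exposed mice. The log2 fold change of 0.11 ± 0.07 did not pass with all libraries (adjusted p = 0.523) or without the 8 (adjusted p = 0.448), and its 95% interval, from -0.04 to 0.25 on the log2 scale with all libraries, does not show that Hadh was unchanged.

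At 15 mg/kg bw/d, 3 members rose (Eci1, Eci2 and Hadhb) and 2 fell (Acadm and Acads) with all libraries, in a comparison in which 7.57% of all genes rose and 6.61% fell. The median log2 fold change of the 10 members was -0.05. None of these 5 calls held without the 8 libraries. In that fit, with 7 mice at 15 mg/kg bw/d and 13 controls left, 1 member rose (Acadl; 2.76% of all genes) and none fell (2.55%), and the log2 fold changes ran from -0.19 to 0.28. Estimates of both fits are set side by side in the plot of fold changes.

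**Figure D2:**
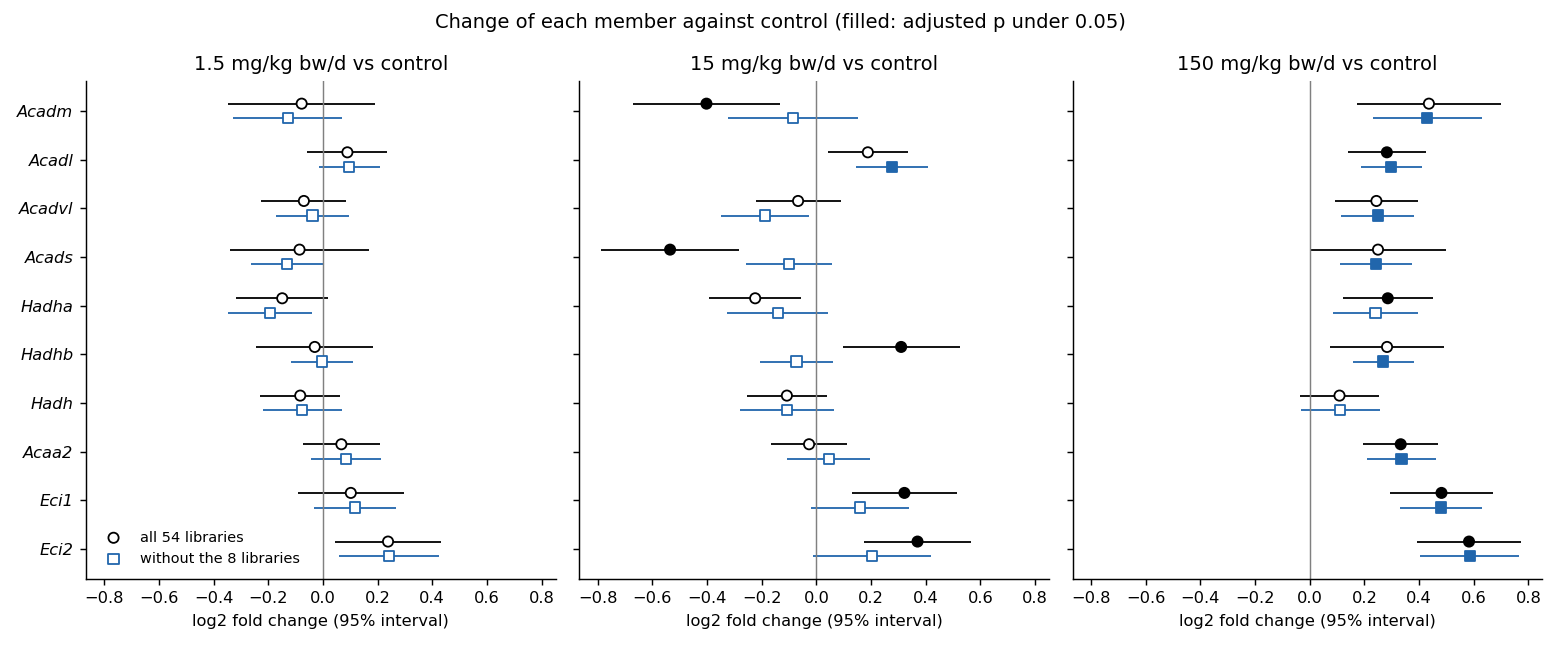
log2 fold change of each member (x axis, on log2(level + 1), with its 95% interval) against control at each dose; black circles are the fit of all 54 libraries, blue squares that without the 8 libraries, and filled symbols have an adjusted p under 0.05. At 150 mg/kg bw/d both fits place all 10 members above 0, while at 15 mg/kg bw/d Acads moves from -0.54 to -0.10 and Hadhb from 0.31 to -0.07.

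Acads, the short-chain dehydrogenase, had levels of 49.8, 119 and 173 (lowest, median and highest) at 15 mg/kg bw/d. The 6 mice that stood apart lay between 49.8 and 80.6, below the lowest of all control mice (95.6), and the other 7 lay between 119 and 173, a span that largely overlapped that of the other 13 controls (129.5 to 172). Acads had a log2 fold change of -0.54 ± 0.13 with all libraries (adjusted p = 0.00249), the 1 member past the fold threshold (1.86% of all genes passed downwards), and -0.10 ± 0.08 without the 8 (adjusted p = 0.508). Acadm showed the same split less sharply: 226 to 418 in the 6 mice and 406 to 721 in the other 7, against 402 to 851 in the other 13 controls. For Acadm the log2 fold change went from -0.40 ± 0.13 (adjusted p = 0.0343) to -0.09 ± 0.12 (adjusted p = 0.747). Leaving out control mouse 6, 13 or 14, or mouse 5, 6, 7 or 8 at 15 mg/kg bw/d, alone ended the call of Acadm (adjusted p from 0.0520 to 0.0843).

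Hadhb, the thiolase subunit, moved the other way in the same mice. It had 62.7 to 85.3 in the 6 mice and 38.2 to 44.8 in the other 7, a span within that of the other 13 controls (37.7 to 49.4). Its log2 fold change of 0.31 ± 0.11 (adjusted p = 0.0403) became -0.07 ± 0.07 without the 8 libraries (adjusted p = 0.594), and it lost its call when any 1 of 14 mice was left out (control mice 2, 5 to 9, 13 and 14, and mice 4 to 9 at 15 mg/kg bw/d; adjusted p from 0.0540 to 0.103). Its partner Hadha lay between 111 and 148 in the 6 mice and between 128 and 182 in the other 7, so that the subunits of 1 protein differed from the other 7 mice in opposite directions. Over the 8 libraries from all groups, the ratio of the Hadhb level to the Acads level was between 0.576 and 1.60, where it was between 0.218 and 0.397 in the other 46. The scatter of Acads against Hadhb shows this separation.

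**Figure D3:**
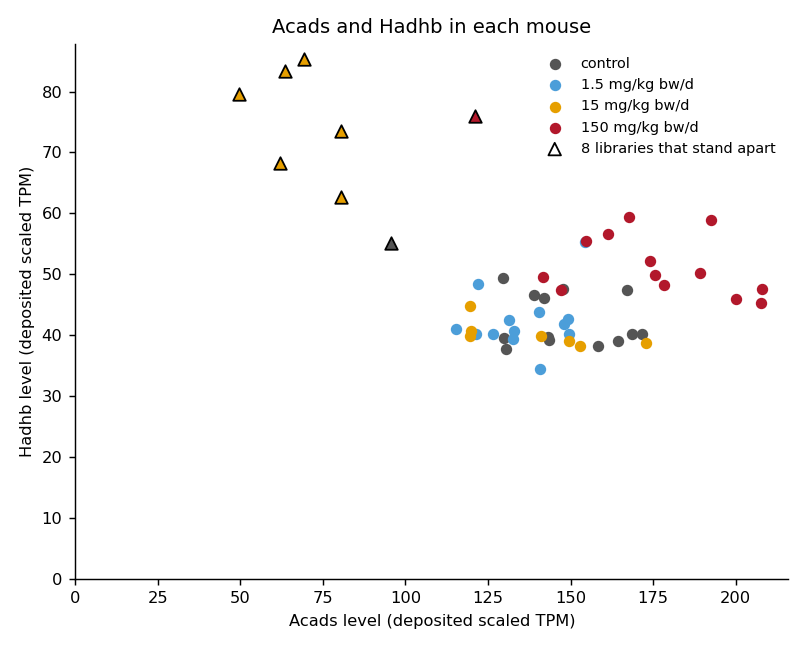
Level of Hadhb (y axis) against that of Acads (x axis) in each of the 54 mice, both in deposited scaled TPM; colours are the dose groups and triangles the 8 libraries that stand apart. The 6 triangles at 15 mg/kg bw/d have Acads levels of 49.8 to 80.6 and Hadhb levels of 62.7 to 85.3, and no other mouse has both so low an Acads level and so high a Hadhb level.

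Eci1 and Eci2 rose at 15 mg/kg bw/d with all libraries, by log2 fold changes of 0.32 ± 0.10 (adjusted p = 0.0173) and 0.37 ± 0.10 (adjusted p = 0.00626). In Eci1 the 6 mice reached from 95.7 to 244 and the other 7 from 103 to 127, and in Eci2 the 6 reached from 97.5 to 176 and the other 7 from 99.9 to 132. Without the 8 libraries the log2 fold changes were 0.16 ± 0.09 (adjusted p = 0.319) and 0.20 ± 0.11 (adjusted p = 0.294). Acadl was the member that passed without the 8 libraries: the remaining 7 mice had 102, 129 and 159 (lowest, median and highest) against 94.3, 107 and 128 in 13 controls. Its log2 fold change was 0.28 ± 0.07 (adjusted p = 0.00733), where it was 0.19 ± 0.07 with all libraries (adjusted p = 0.0727). Mouse 7 at 15 mg/kg bw/d had the lowest Acadl level of all mice (70.0), and without this mouse alone Acadl passed (adjusted p = 0.00243); without mouse 13 at 15 mg/kg bw/d alone it also passed (adjusted p = 0.0394). Hadha had an adjusted p of 0.0648 with all libraries (log2 fold change -0.22 ± 0.08) and of 0.416 without the 8, and it passed when control mouse 1 or 9, or mouse 1, 12 or 13 at 15 mg/kg bw/d, was left out alone (adjusted p from 0.0153 to 0.0446). Acadvl, Hadh and Acaa2 did not pass in either fit, with log2 fold changes of -0.07, -0.11 and -0.03 with all libraries and of -0.19, -0.11 and 0.05 without the 8.

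At 1.5 mg/kg bw/d no member passed in limma at an adjusted p under 0.05, with all libraries (0.674% of all genes rose and 0.525% fell) or without the 8 (1.30% and 1.22%), and none passed in the Wilcoxon rank-sum test. At an unadjusted p under 0.05 in limma, 1 of the 10 passed with all libraries and 2 without the 8. The share of all genes at this unadjusted threshold is not given here, so these counts cannot be set against it. Eci2 had the highest log2 fold change, 0.24 ± 0.10, with levels of 90.3, 118 and 140.2 against 58.9, 102 and 139 in control mice, and 10 of 13 mice above the control median (adjusted p = 0.267). Hadha had the lowest, -0.15 ± 0.08, with 2 of 13 mice above the control median (adjusted p = 0.473). The 95% intervals of the 10 members reached from -0.35 to 0.43 on the log2 scale.

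Between doses, 6 members were higher at 150 than at 15 mg/kg bw/d with all libraries and none was lower (9.85% and 10.1% of all genes): Acadm (log2 fold change 0.84), Acads (0.78), Hadha (0.51), Acaa2 (0.36), Acadvl (0.31) and Hadh (0.22). Without the 8 libraries, 8 members were higher and none was lower (4.36% and 3.98% of all genes), all except Acadl and Hadh. The differences of Acadm and Acads fell to 0.51 ± 0.12 and 0.34 ± 0.08, and that of Hadhb went from -0.03 ± 0.11 (adjusted p = 0.887) to 0.34 ± 0.07 (adjusted p = 0.000555). Every mouse at 150 mg/kg bw/d had a higher Acaa2 level than every mouse at 15 mg/kg bw/d, which 0.0875% of all genes showed. Without the 8 libraries, Hadhb also had no overlap between these groups, from 45.3 to 59.4 against 38.2 to 44.8 (0.385% of all genes). The 6 mice left out at 15 mg/kg bw/d held the highest Hadhb levels of that group (62.7 to 85.3). The lack of overlap and the call of Hadhb without the 8 therefore rest on leaving them out and are descriptions. Acadl did not differ between these doses beyond the spread between mice, with log2 fold changes of 0.09 ± 0.07 with all libraries and 0.02 ± 0.07 without the 8, and the interval of the latter was -0.11 to 0.15. Leaving out mouse 7 or 11 at 15 mg/kg bw/d alone ended the call of Hadh (adjusted p = 0.0670 and 0.0522), and leaving out mouse 5 let Eci1 pass (adjusted p = 0.0447).

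Against 1.5 mg/kg bw/d, 6 members were higher at 150 mg/kg bw/d and none was lower with all libraries (2.55% and 2.06% of all genes): Acadm, Acadvl, Hadha, Acaa2, Eci1 and Eci2. All 4 groups set the residual spread of these tests, and the count was 9 when the 2 groups were fitted alone, with array quality weights, or in the Wilcoxon rank-sum test. In the same order, 384, 400 and 392 of the 11431 genes were higher, against 292 in the fit of all 4 groups. The count of members was 4 with quantile normalization, where Acadm (adjusted p = 0.0723) and Acaa2 (0.0787) did not pass, and 4 with the same sum in each sample, where Acadm (0.0575) and Eci1 (0.0665) did not. There 263 and 140 of the 11431 genes were higher. Without the 8, 9 members were higher (3.83% of all genes) and none was lower (3.05%), with log2 fold changes from 0.20 (Acadl) to 0.56 (Acadm), and Hadh at 0.19 ± 0.07 was the exception (adjusted p = 0.111). Between 15 and 1.5 mg/kg bw/d, Hadhb was higher and Acads lower with all libraries (10.9% and 10.5% of all genes), and no member passed without the 8 (2.69% and 2.36% of all genes), where 1 of the 10 had an unadjusted p under 0.05 (the share of all genes at that unadjusted threshold is not given here).

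Ratios of members within a mouse do not depend on how a library was scaled, and 6 pairs that share a complex or a kind of reaction were compared with control at 3 doses, 18 tests in all. With all libraries no ratio passed after adjustment in the two-sided permutation test with 100000 resamples, and 5 had an unadjusted p under 0.05. The log2 ratio of Hadha to Hadhb was 1.90 ± 0.32 (SD, n = 14) in control mice; at 150 mg/kg bw/d it was 1.91 ± 0.20 (n = 14), which differed by 0.0027. At 15 mg/kg bw/d it was 1.37 ± 0.65 (n = 13), a difference of -0.53 (permutation p = 0.0117, adjusted p = 0.150), and without the 8 libraries the difference was -0.07 (permutation test, adjusted p = 0.668). The log2 ratio of Acadl to Acadvl, the dehydrogenases for long and very long chains, differed at 15 mg/kg bw/d by 0.26 with all libraries (permutation test, adjusted p = 0.150). Without the 8 it was -0.82 ± 0.25 (n = 7) against -1.28 ± 0.15 (n = 13) in control mice, a difference of 0.46, with all 7 mice above the control median (permutation test, adjusted p = 0.00414). With all libraries this ratio ran from -1.80 to -0.51 at 15 mg/kg bw/d. Leaving out the 8 acts directly on it, since the split was first seen in the members, so that its p is a description. At 150 mg/kg bw/d this ratio differed by 0.05 without the 8 (permutation test, adjusted p = 0.668).

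Members also varied between mice of the same group. With group means removed, 20 of the 45 pairs of members correlated over all 54 mice at an adjusted permutation p under 0.05, 15 positively and 5 negatively, but these mice fell into separate clusters, so coefficients are given for the 46 mice outside the 8. Over the 46, 18 pairs correlated, all 18 positively, and 12 of the 45 passed with Spearman's rho. No share over pairs of other genes was computed. These counts therefore do not show that members correlate more often than other genes do. The 5 negative pairs over 54 mice (Acads with Hadhb, Acadvl and Eci2, and Acadm with Hadhb and Acadvl) did not pass over the 46. Because the split was first seen in the members, leaving out the 8 libraries acts directly on these pairs. The signs over the 46 are therefore a description. The highest coefficient was that of Hadh with Eci1 (r = 0.71, rho = 0.64, permutation p = 1e-05 and 2e-05, adjusted p = 0.000225 and 0.00045; r = 0.69 without the 2 mice farthest from the median of Hadh). Within groups its r was 0.79 in 13 control mice, 0.86 in 13 mice at 1.5, 0.46 in 7 at 15 and 0.09 in 13 at 150 mg/kg bw/d. Acadm with Hadha had r = 0.69 and rho = 0.66 (permutation p = 1e-05 for both, the smallest that 100000 resamples can give, adjusted p = 0.000225 and 0.00045; r = 0.65 without the 2 farthest mice). Acaa2 with Eci2 had r = 0.62 and rho = 0.53 (permutation p = 0.00011 and 0.00044, adjusted p = 0.00153 and 0.00495; r = 0.45 without the 2 farthest mice). Hadha with Hadhb had r = 0.40 and rho = 0.28 (permutation p = 0.0111 and 0.0548, adjusted p = 0.0278 and 0.145; r = 0.23 without the 2 farthest mice), so that the relation of the subunits rested in part on those mice, and within groups r ran from -0.72 in the 7 mice at 15 mg/kg bw/d to 0.59 at 1.5 mg/kg bw/d. Acadm, Acads, Hadha, Hadh and Eci1 correlated by Pearson's r in all of their 10 pairs, but Acadm with Hadh and Eci1, and Hadha with Acads and Hadh, did not pass with Spearman's rho (adjusted p from 0.0590 to 0.332). Within the 13 mice at 150 mg/kg bw/d, r over the 10 pairs ran from -0.69 (Hadha with Hadh) to 0.59 (Acadm with Hadha), and Hadha with Hadh had r = 0.22 over the 46 without the 2 farthest mice. By Pearson's r, Eci2 correlated with Acadl, Acadvl, Hadhb and Acaa2 but not detectably with Eci1 (r = 0.07). The plot of pairwise correlations gives all 45.

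**Figure D4:**
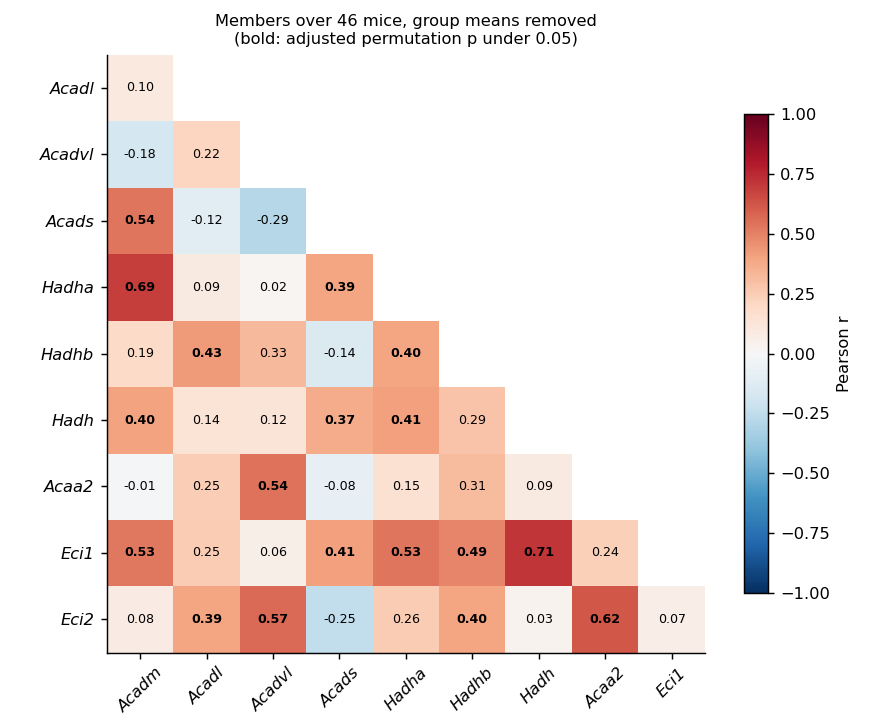
Pearson correlation of the levels of each pair of members on the log2(level + 1) scale over the 46 mice outside the 8 libraries, with group means removed; both axes list the members, colour and number give r, and bold numbers have an adjusted permutation p under 0.05. The 18 bold coefficients are all positive, up to 0.71 for Hadh with Eci1.

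Ehhadh encodes the peroxisomal bifunctional enzyme, which performs the hydration and second dehydrogenation outside the mitochondrion, and its log2 fold change at 150 mg/kg bw/d was above that of every member. Its levels were 10.6, 14.2 and 30.0 in control mice and 33.0, 48.9 and 73.1 at 150 mg/kg bw/d, with every exposed mouse above every control mouse (as in 0.0962% of all genes), and it rose by a log2 fold change of 1.54 ± 0.12 (adjusted p = 1.13e-13; 1.57 ± 0.13 without the 8 libraries). At 1.5 and 15 mg/kg bw/d its log2 fold changes were both 0.02. No member correlated with Ehhadh between mice of the same group at an adjusted permutation p under 0.05: over the 46 mice r ran from -0.18 (Acadvl) to 0.25 (Acadl), and over all 54 none passed either, with 2 of 10 at an unadjusted p under 0.05. Within groups of the 46 mice the coefficients scattered, for Hadha from -0.47 in 13 control mice to 0.60 in 13 mice at 150 mg/kg bw/d.

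Of the partner enzymes and carriers around the cycle (16 genes, all tested), 2 rose at 150 mg/kg bw/d with all libraries and none fell, beside 1.49% and 0.682% of all genes tested: Echs1, the short-chain enoyl-CoA hydratase that performs the hydration step (log2 fold change 0.24 ± 0.06, adjusted p = 0.00872), and Decr1, the reductase for unsaturated intermediates (0.34 ± 0.08, adjusted p = 0.00872). Without the 8 libraries, where 2.33% of all genes rose, 6 rose: Echs1, Decr1, Acad11, Acsm5 and the electron carriers Etfb and Etfdh. Of 7 genes for fatty acid activation and the carnitine shuttle, 4 rose in both fits: Slc22a5, the carnitine importer (0.77 ± 0.13), Acsl1, which activates long-chain fatty acids (0.72 ± 0.13), Cpt2 (0.34 ± 0.08) and the carnitine carrier Slc25a20 (0.28 ± 0.08). Of 17 peroxisomal genes, 6 rose with all libraries and 7 without the 8, and besides Ehhadh these included Ech1 (0.53 ± 0.11), Decr2 (0.49 ± 0.09), Acaa1b (0.45 ± 0.12) and Abcd3 (0.42 ± 0.09). None of the 4 acyl-CoA dehydrogenases of amino acid breakdown rose with all libraries, and 1, Gcdh, rose without the 8 (0.25 ± 0.08, adjusted p = 0.0474). At 15 mg/kg bw/d without the 8, Gcdh (0.39), Acsm5 (0.47) and Echs1 (0.22) also rose in limma (adjusted p = 0.00671, 0.00335 and 0.0401). In that comparison 0 of the 7 carnitine shuttle genes and 0 of the 17 peroxisomal genes rose, beside 2.76% of all genes. The median log2 fold changes at 150 mg/kg bw/d were 0.34 for the carnitine shuttle, 0.28 for the 10 members, 0.20 for the partners, 0.18 for the peroxisomal genes, 0.16 for the dehydrogenases of amino acid breakdown and -0.01 for all genes tested (0.35, 0.28, 0.21, 0.17, 0.19 and -0.01 in the same order without the 8 libraries). Of 11 regulators, Ppara alone rose (0.58 ± 0.12, adjusted p = 0.00187), and it also did so without the 8 libraries.

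Among the 5 genes whose levels followed the mean of the 10 members most closely over all 54 mice, with each member scaled to unit SD and group means removed, were Acsl1 (r = 0.83), the nuclear receptor gene Nr1i3 (0.75), the haem synthesis enzyme Cpox (0.71) and the glucuronosyltransferase Ugt1a8 (0.71). Over the 46 mice outside the 8, chosen after the values were seen, the first 5 included Ech1 (0.79), Acsl1 (0.77), Slc25a20 (0.76) and Acot1 (0.71). These coefficients are descriptions, since the mice of both lists share libraries and the genes were ranked by them.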

How the data were processed

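Liver RNA of 54 mice was sequenced by the authors with QuantSeq 3′ mRNA-Seq libraries, and reads were processed with the nf-core/rnaseq pipeline (STAR, RSEM and Salmon, named without versions in the submitters' processing notes) on GRCm38. The deposited signal is named TPM. The values of a sample are whole multiples of 1 step, as if TPM had been rounded to whole numbers and divided by a size factor for each sample. The paper does not describe this step. The signal keeps no depth, so that sampling error of single values is unknown. Samples were grouped by their labels.

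The 11431 genes (56.7% of rows) with a mean of at least 1 entered limma 3.58.1 in R 4.3.3 (eBayes with trend) on log2(value + 1), all 4 groups in 1 fit, with Benjamini-Hochberg adjustment over all genes tested. A fold change on this scale understates changes of low genes. A differentially expressed gene was one whose log2 fold change lay beyond 0.5 in either direction at an adjusted p under 0.05. The fit was tested on simulated data. Ratios and correlations used numpy 2.4.6 with two-sided permutation tests (100000 resamples, within groups for correlations), adjusted over 18, 45 and 10 tests. The members, lists, pairs and the leaving out of 8 libraries were chosen with earlier results of these data known. All 10 members are named; of other lists, at most 6 genes per list by adjusted p under 0.05 in the comparison described, Echs1 and Ehhadh always, and the 5 genes most like the members. A few genes that these rules pick are not reported here. Genes named without the 8 libraries were chosen after their values were seen. Replicate numbers did not pair mice: over 79 same-numbered pairs the deviations from group means had a mean correlation of -0.0025. Alternatives were other pseudocounts, filters, normalizations, weights, tests, a replicate block and leaving out each mouse in turn.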

Additional observations from a re-analysis of the deposited data

How the results depend on the processing

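The 10 log2 fold changes at 150 mg/kg bw/d stayed above 0 under every alternative run. The count of members called there (5) was 3 with the same sum in each sample, 7 with the 2 groups alone, array quality weights or the Wilcoxon rank-sum test, and 8 without the 8 libraries that stand apart, an alternative chosen after seeing the data, and 4 to 6 with each mouse left out in turn. The count of members also past the fold threshold (1) was 0 with the same sum and 5 with a fold threshold of 0.25, and 1 to 2 with each mouse left out. At 15 mg/kg bw/d against control, the count of 5 was 3 with no filter, 2 with the 2 groups alone, 0 with the Wilcoxon rank-sum test and 1 without the 8 libraries, and 3 to 7 with each mouse left out. The count fell to 3 without control mouse 6, 13 or 14, or mouse 5, 6 or 8 at 15 mg/kg bw/d. All genes called numbered 1621 in the first fit, 1269 with no filter, 1069 with the 2 groups alone and 833 with the Wilcoxon rank-sum test. Past the fold threshold the count of 1 was 2 with quantile normalization, 5 with a threshold of 0.25, and 0 with array quality weights, the Wilcoxon rank-sum test, without the 8 libraries or without mouse 5, 6, 7 or 8 at 15 mg/kg bw/d. For 150 against 15 mg/kg bw/d the 3 members past the fold threshold were 5 at 0.25 and 1 without the 8 libraries. For 150 against 1.5 mg/kg bw/d that count of 1 was 0 with quantile normalization, the same sum or array quality weights, 6 at 0.25, and 0 to 1 with each mouse left out. For 15 against 1.5 mg/kg bw/d, the 2 members called were 4 with quantile normalization, 0 with the 2 groups alone, array quality weights, the Wilcoxon rank-sum test or without the 8 libraries, and 1 to 3 with each mouse left out, and the 0 past the fold threshold became 1 with the same sum, 2 at 0.25, and 0 to 1 with each mouse left out. Of the within-mouse ratios at 15 mg/kg bw/d, 0 passed with all libraries and 1 without the 8. The causes were not tested. With a replicate block, 4 members were called at 15 and 4 at 150 mg/kg bw/d, where Hadha had an adjusted p of 0.0866, and 5 of the 6 at 150 against 1.5 mg/kg bw/d, where Eci2 had one of 0.0513. All genes called with this block numbered 1460, 213 and 444 in the same comparisons. Replicate numbers do not pair these mice.

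Signs that reversed without the 8 libraries, on the log2 scale, were those of Hadhb (-0.072) and Acaa2 (0.046) at 15 mg/kg bw/d against control, of Hadhb at 150 against 15 mg/kg bw/d (0.34), of Acadm (0.044), Acadvl (-0.15), Acads (0.030), Hadha (0.053), Hadhb (-0.069) and Eci2 (-0.039) at 15 against 1.5 mg/kg bw/d, and of the ratios of Acaa2 to Hadhb at 15 mg/kg bw/d (0.12) and of Hadha to Hadhb at 150 mg/kg bw/d (-0.029; -0.0011 with a pseudocount of 0.1). Correlations that reversed were Acadm with Hadhb (0.19), Acaa2 (-0.0085) and Eci2 (0.084), Acadl with Acads (-0.12) and Hadhb (0.43), Acadvl with Hadha (0.018), Acads with Acaa2 (-0.08) and Eci1 (0.41), and Hadha with Hadhb (0.40). Other reversals were of Hadhb at 150 against 15 mg/kg bw/d with array quality weights (0.10; -0.068 to 0.028 with each mouse left out), of Acadvl at 15 against 1.5 mg/kg bw/d with quantile normalization (-0.08), the same sum (-0.051) or array quality weights (-0.044; -0.031 to 0.031 with each mouse left out), of Hadh there (-0.051 to 0.011 with each mouse left out) and of Acaa2 at 15 mg/kg bw/d against control (-0.071 to 0.022 with each mouse left out), each of these with uncalled main values.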

Other observations

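The acetyl-CoA that beta-oxidation releases enters the citric acid cycle, for which 17 genes were listed and all tested. At 1.5 mg/kg bw/d, the malate dehydrogenase gene Mdh2 had a log2 fold change of 0.28 with all libraries and did not pass (adjusted p = 0.0536), and it rose without the 8 libraries that stand apart (0.26, adjusted p = 0.0371). At 15 mg/kg bw/d, 8 of the 17 rose and none fell with all libraries, in a comparison in which 7.57% of all genes rose. Without the 8 libraries, 4 of the 17 rose, beside 2.76% of all genes: Idh3b (log2 fold change 0.41, adjusted p = 0.00356), Fh1 (0.34, adjusted p = 0.0179), Idh3a (0.33, adjusted p = 0.0261) and Dld (0.22, adjusted p = 0.0401). Idh3a and Idh3b encode subunits of the mitochondrial isocitrate dehydrogenase, Fh1 fumarase and Dld a subunit shared by the 2-oxo acid dehydrogenases. At 150 mg/kg bw/d, Sdha, a succinate dehydrogenase subunit, rose with all libraries (0.25 ± 0.05, adjusted p = 0.000433), and Sdha and Suclg1 without the 8. Of the regulators, Rxra, the partner receptor of PPARα, was higher at 15 mg/kg bw/d without the 8 libraries (0.38, adjusted p = 0.00781). These genes were named after their values were seen, and no difference between the doses in the number of genes called was tested.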
